A study of Mus musculus with 12 samples.

Results

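Of the Cyp3a genes of the mouse, 8 are described here in liver RNA-Seq of mice on caloric restriction (CR). They were taken by symbol: Cyp3a11, Cyp3a13, Cyp3a16, Cyp3a25, Cyp3a41a, Cyp3a41b, Cyp3a44 and Cyp3a59, out of 24537 genes in the table. A further Cyp3a gene of the table, Cyp3a57, is not among them and measured 0.109 to 0.422 FPKM, the unit of abundance used throughout. The 12 libraries came from individually housed male C57Bl/6J mice that were 6 weeks old at the start. Con mice ate an NIH41 diet ad libitum, and CR mice were given a fortified NIH41 diet with 30% fewer calories, fed once a day at noon. Livers were collected at day 25 or day 30, from 3 Con and 3 CR mice at each day, and all mice had received heavy water before collection. The mice carried no transgene or deletion, and the hour of collection relative to the CR meal is not given in the sources used here. The comparisons ask how CR changed hepatic mRNA at each day, and whether it did so differently on the later day.

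Cytochrome P450 3A enzymes are haem monooxygenases of the endoplasmic reticulum in hepatocytes and enterocytes. They oxidise a wide range of drugs, steroids and bile acids, using electrons passed on by the reductase Por. Their transcription in the liver is driven by liver-enriched factors such as Hnf4a and is induced by foreign compounds, steroids and bile acids through the nuclear receptors PXR (Nr1i2) and CAR (Nr1i3), each paired with Rxra. In adult mouse liver Cyp3a11 is the main form, whereas Cyp3a41a, Cyp3a41b and Cyp3a44 are known as female-predominant genes and Cyp3a16 as a gene of the perinatal liver.

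In short, Cyp3a11 made up most of the Cyp3a mRNA and was lower in CR than in Con mice at day 30, to 0.63 of the Con level, and Cyp3a25 was lower to a smaller degree when the mice of both days were pooled. Neither difference reached the minimum fold change used here. For Cyp3a13 and Cyp3a59 no difference was detectable with 3 mice per group, and the female-predominant Cyp3a genes had 0 to 16 reads in each library.

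Of the genes, 7 lie in 1 cluster on chromosome 5 and Cyp3a13 lies apart on the same chromosome, at chr5:137892933-137921619 (mm10, minus strand). Along the cluster the table places Cyp3a16 at chr5:145436309-145469723, Cyp3a41b at chr5:145558664-145584730, Cyp3a44 at chr5:145773983-145805874, Cyp3a11 at chr5:145854607-145879854 and Cyp3a25 at chr5:145977194-146009618, all on the minus strand, and Cyp3a59 at chr5:146079258-146113283 on the plus strand. The row of Cyp3a41a gives the coordinates of Cyp3a41b and counts 2 copies. The rows held equal FPKM in 11 of 12 libraries, so they may count the same reads.

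The 250 bases before the start of transcription are shown for 6 of the 8 genes, because the cluster holds 2 kinds of promoter and genes with nearly the same promoter differed widely in level. They were read from RefSeq on GRCm38.p6, for which all 8 genes had an entry, and are written 5′ to 3′ on the strand of the gene. Cyp3a11 is at chr5:145879855-145880104, Cyp3a16 at chr5:145469724-145469973, Cyp3a41b at chr5:145584731-145584980, Cyp3a25 at chr5:146009619-146009868, Cyp3a59 at chr5:146079008-146079257 and Cyp3a13 at chr5:137921620-137921869. Capitals mark the forkhead letters TGTTTAC, the HNF4-type letters CAAAGTCCA and the nuclear receptor half-site AGGTCA or, on the other strand, TGACCT.
Cyp3a11: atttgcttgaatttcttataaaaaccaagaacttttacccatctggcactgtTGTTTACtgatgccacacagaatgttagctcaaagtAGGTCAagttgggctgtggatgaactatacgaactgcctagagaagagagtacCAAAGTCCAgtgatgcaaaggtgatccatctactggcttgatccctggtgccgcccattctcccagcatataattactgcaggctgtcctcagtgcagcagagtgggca
Cyp3a16: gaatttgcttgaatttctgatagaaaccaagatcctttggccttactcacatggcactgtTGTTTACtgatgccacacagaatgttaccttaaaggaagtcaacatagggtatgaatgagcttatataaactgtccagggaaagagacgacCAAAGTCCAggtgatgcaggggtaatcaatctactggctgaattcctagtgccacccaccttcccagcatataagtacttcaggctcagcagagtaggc
Cyp3a41b: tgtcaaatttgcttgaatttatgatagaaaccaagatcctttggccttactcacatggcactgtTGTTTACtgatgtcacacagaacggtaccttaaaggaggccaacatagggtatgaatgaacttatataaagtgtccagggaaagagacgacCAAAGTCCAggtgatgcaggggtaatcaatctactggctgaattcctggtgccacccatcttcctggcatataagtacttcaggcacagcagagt
Cyp3a25: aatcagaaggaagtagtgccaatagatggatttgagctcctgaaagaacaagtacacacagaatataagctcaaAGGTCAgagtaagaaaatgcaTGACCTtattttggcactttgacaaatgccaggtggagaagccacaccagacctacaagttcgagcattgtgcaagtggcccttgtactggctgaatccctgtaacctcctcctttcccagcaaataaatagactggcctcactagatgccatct
Cyp3a59: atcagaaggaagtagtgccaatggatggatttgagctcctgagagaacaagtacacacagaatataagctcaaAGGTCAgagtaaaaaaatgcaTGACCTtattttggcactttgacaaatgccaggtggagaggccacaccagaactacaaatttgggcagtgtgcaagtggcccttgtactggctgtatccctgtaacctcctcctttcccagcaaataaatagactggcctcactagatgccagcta
Cyp3a13: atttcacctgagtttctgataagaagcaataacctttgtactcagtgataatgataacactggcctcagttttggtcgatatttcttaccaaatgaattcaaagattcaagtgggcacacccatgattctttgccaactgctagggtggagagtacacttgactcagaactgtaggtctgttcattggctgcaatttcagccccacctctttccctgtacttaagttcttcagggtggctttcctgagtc

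Cyp3a16, Cyp3a41a, Cyp3a41b and Cyp3a44 shared 92.8 to 99.6% of their 250 bases with each other, and Cyp3a11 shared 76.8 to 80% with these 4. The promoters of Cyp3a25 and Cyp3a59, which are read in opposite directions, shared 95.2% with each other. Any other pair, including every pair with Cyp3a13, shared 60.8 to 66%. Positions are counted back from the start, with -1 as the last base before it. The HNF4-type letters stood at -109 to -101 in Cyp3a11, at -99 to -91 in Cyp3a16 and at -95 to -87 in Cyp3a41a and Cyp3a41b, and 0.381% of 27025 mouse promoters of this length held them on either strand. The forkhead letters stood in the same 4 genes and in Cyp3a44, from -198 to -192 in Cyp3a11, against 3.09% of all promoters. AGGTCA was present in Cyp3a11, Cyp3a44, Cyp3a25 and Cyp3a59, with 1 match on each strand in the last 2 genes, and 13.8% of all promoters held it. Thus the abundant Cyp3a11 and the scarce Cyp3a16 and Cyp3a41b carried the same forkhead and HNF4-type letters in this window. None of the 8 windows held the letters TTCNNNGAA, known from STAT sites, which 7.18% of all promoters held. The letters TTGCGCAA of C/EBP sites were also in none of the 8, and in 0.17% of all promoters. AGTTCA, another form of the half-site, was in Cyp3a11, Cyp3a41a and Cyp3a41b and in 11.9% of all promoters, and TATAAA was in the same 3 genes, Cyp3a16 and Cyp3a44 and in 13% of all promoters. No window held 2 copies of AGGTCA, or of AGTTCA, in tandem with a gap of 3 bases, or the everted pair with a gap of 6. These matches are descriptions of letters, and enhancers farther from the start were not examined.

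The transcripts are alike enough that the origin of some reads is uncertain. Sequencing gave pairs of 100 bases, so each transcript was divided into every window of 100 bases and each window was looked for in the transcripts of all other genes (GENCODE M21, GRCm38). Of the windows of Cyp3a41a, 88.4% were also found in Cyp3a41b, and the aligned transcripts were 99.9% identical. These 2 genes cannot be told apart by most such reads and are also given as a sum, which may count the same reads in both rows. Shared windows made up 5.61% of Cyp3a59 and 4.68% of Cyp3a25, all of them between these 2 genes, 5.37% of Cyp3a44, 0.312% of Cyp3a11, 0.123% of Cyp3a16 and 0% of Cyp3a13. Although Cyp3a11 was 91.7 to 94.5% identical to Cyp3a16, Cyp3a41a, Cyp3a41b and Cyp3a44, only 7 of its 2245 windows occurred in another gene. How reads were assigned among copies is not given in the sources used here.

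Each library held 15748721 to 23345531 reads, a depth recovered from the smallest steps of the values, and 78.1 to 84.3% of reads fell on exons. Values are FPKM (fragments per kilobase of exon, scaled to the reads of the library), which are scaled to length and so allow levels of different genes to be compared. The hepatocyte markers Alb, Apoa1, Ttr, Tat and Cps1 summed to 35670 to 63670 FPKM. Of the enterocyte markers, Vil1, Alpi and Lct were at or below 0.138 FPKM in every library, while Fabp2, which liver also expresses, was at 33.6 to 66.3 FPKM. In bulk liver a lower level can mean fewer cells expressing a gene or less RNA per cell, and these cannot be told apart. Nothing in the labels says more than that the samples are separate mice, so p-values measure the spread between these mice.

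Levels differed widely between the genes. Cyp3a11 was the most abundant Cyp3a mRNA, at 2011 to 4505 FPKM over the 12 libraries and a median rank of 14.5 among all genes of the table. It made up 81.3 to 88.9% of the summed FPKM of the 8 genes and 0.488 to 1.11% of the FPKM of all genes. Cyp3a25 followed at 326 to 542 FPKM, with a median rank of 121. Cyp3a13, at 57 to 90.5 FPKM, and Cyp3a59, at 28.2 to 67 FPKM, had overlapping ranges, although Cyp3a13 was the higher in each of the 12 libraries. Cyp3a16 reached only 0.5 to 1.396 FPKM, from 15 to 46 reads, and Cyp3a44 0.044 to 0.352 FPKM, from 2 to 16 reads. Cyp3a41a and Cyp3a41b had 0 to 2 reads each, under a floor of 3 reads, which is 0.0628 to 0.0931 FPKM for a transcript of this length, and their order cannot be given.

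**Figure D1:**
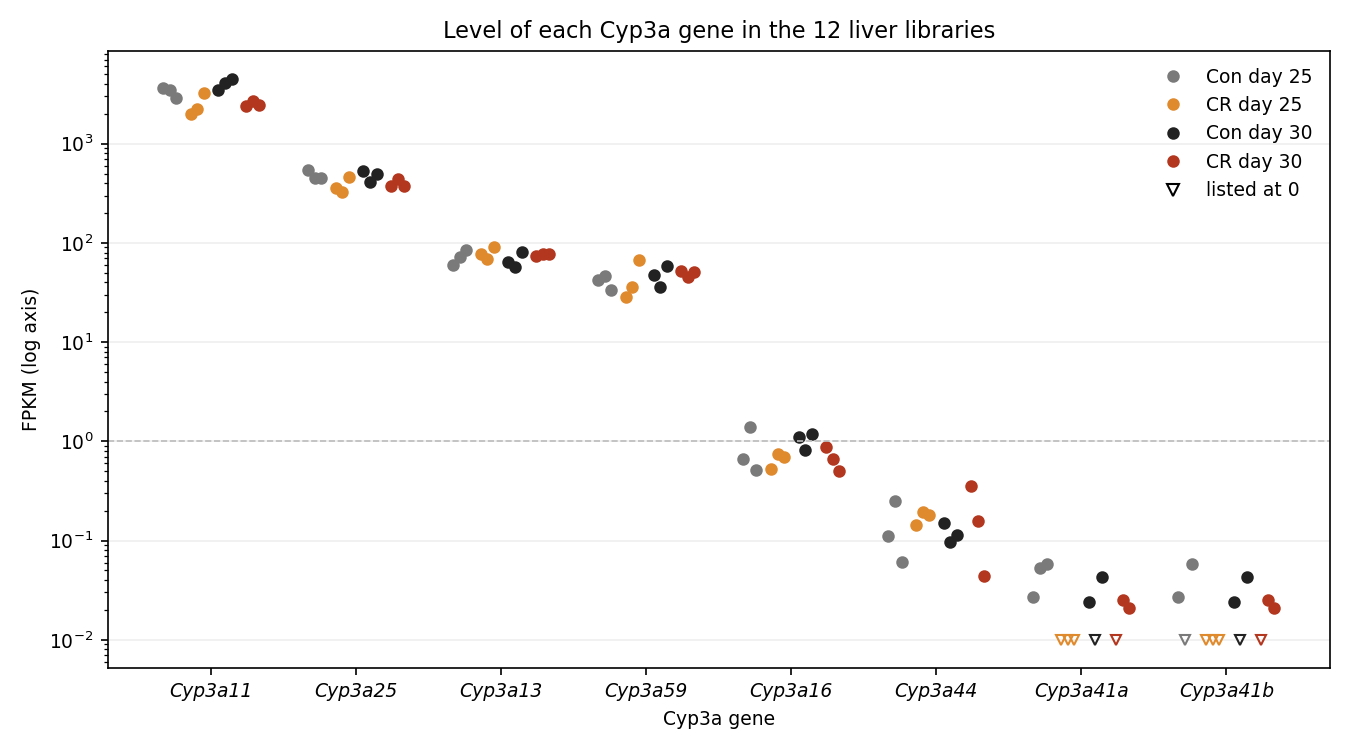
FPKM on a log axis for each Cyp3a gene, with 1 point per library and colours for the 4 groups; open triangles mark values listed at 0 and the dashed line marks 1 FPKM. Cyp3a11 lies at 2011 to 4505 FPKM in all libraries, and Cyp3a41a and Cyp3a41b lie below 0.06 FPKM.

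**Figure D2:**
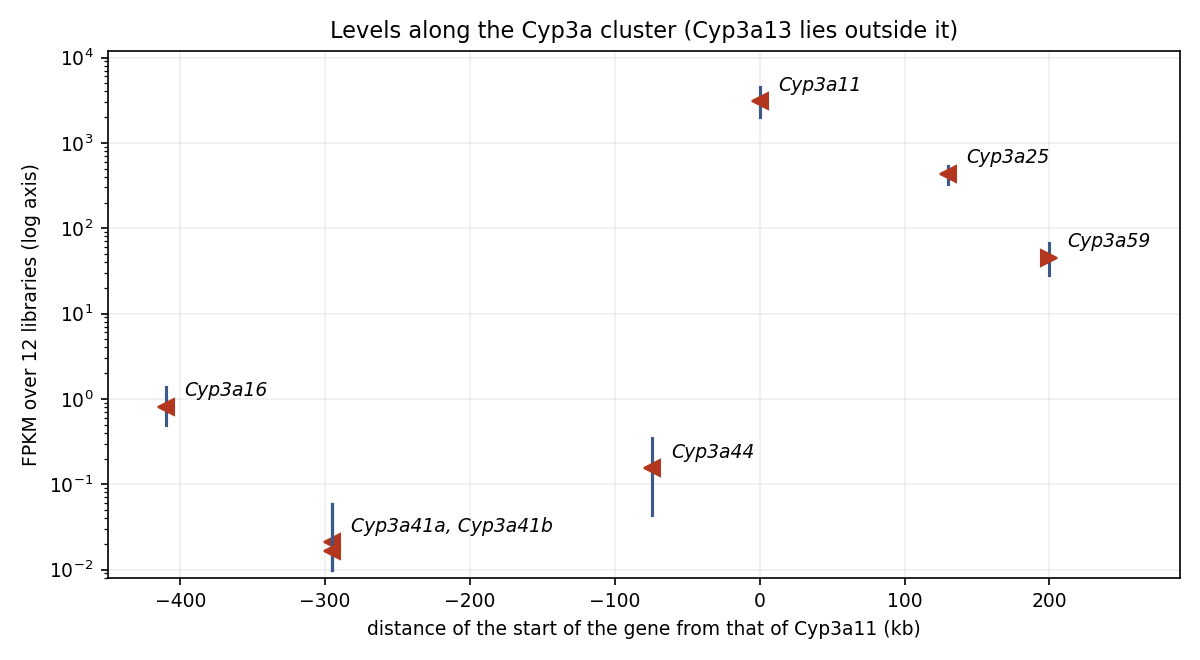
Mean FPKM over 12 libraries on a log axis against the distance in kb from the start of Cyp3a11, with vertical lines from the lowest to the highest library (values at 0 drawn at the bottom) and arrowheads for the strand. The abundant genes Cyp3a11, Cyp3a25 and Cyp3a59 are neighbours at 1 end of the cluster, and Cyp3a44, -74 kb from Cyp3a11, averaged 0.155 FPKM.

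A gene was tested if at least 3 libraries reached 1 FPKM, which kept 10593 genes and 5 of the 8 Cyp3a genes: Cyp3a11, Cyp3a25, Cyp3a13, Cyp3a59 and Cyp3a16. Cyp3a16 passed with exactly 3 libraries, all of them from Con mice, so the filter itself favours a lower CR value for it. Differences are of log2(FPKM + 1), tested in limma with Benjamini-Hochberg adjustment over all tested genes. A gene was called when the adjusted p was under 0.1 and the log2 difference was at least 1 in size. No Cyp3a gene was called at day 25, when 1.48% of all tested genes were, at day 30, when 2.21% were, or over both days, when 1.66% were.

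Cyp3a11 oxidises steroids and many drugs and is the mouse counterpart most often compared with human CYP3A4. At day 25 it stood at 3633, 3471 and 2916 FPKM in Con mice and at 2011, 2212 and 3221 FPKM in CR mice. The first 2 CR mice lay below all Con mice, and the third CR mouse lay among them. The CR difference was -0.45 on the log2 scale (SE 0.172, 95% interval -0.83 to -0.08, limma with Benjamini-Hochberg adjusted p = 0.123). At day 30 the Con mice were at 3446, 4081 and 4505 FPKM and the CR mice at 2388, 2698 and 2463 FPKM. Every CR mouse was below every Con mouse, and the CR values were close together, with a group mean of 2516 ± 161 (SD, n = 3) against 4011 ± 533 in Con. The log2 difference was -0.67 (SE 0.172, 95% interval -1.04 to -0.29, limma with Benjamini-Hochberg adjusted p = 0.0214), which is 0.63 of the Con level. Such a separation downward was seen for 24.3% of all tested genes at day 30 and for 18% at day 25, so it was common. Cyp3a11 lay at percentile 3.67 of all tested genes when ordered from the lowest difference at day 30, and at percentile 5.99 at day 25. The median difference of all tested genes was -0.07 at day 30 and -0.04 at day 25.

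The CR difference in Cyp3a11 passed the adjusted p threshold of 0.1 at day 30 and not at day 25, but the differences at the 2 days were not shown to differ from each other. The difference between them was -0.21 (95% interval -0.74 to 0.32, limma with Benjamini-Hochberg adjusted p = 1). Between CR mice of day 30 and CR mice of day 25 it was 0.05 (95% interval -0.32 to 0.42, adjusted p = 0.957). With the mice of both days in 1 model the CR difference was -0.56 (SE 0.121, 95% interval -0.82 to -0.30, limma with Benjamini-Hochberg adjusted p = 0.00412), and 5 of 6 CR mice were below the lowest Con mouse. At day 30 the adjusted p was 0.109 when libraries were quantile-normalised, with a difference of -0.45, and 0.103 when low genes were not filtered out. At day 25 it was 0.0285, with a difference of -0.66, without the third CR mouse.

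That mouse, the third CR mouse of day 25, had the highest Cyp3a11, Cyp3a25, Cyp3a13 and Cyp3a59 of its group. Its depth of 20110001 reads was between those of the other two, its median-ratio scaling factor was 0.965 against 0.986 and 0.994, and its part in the Cyp3a11 result is the value without it given above.

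Cyp3a25 is the second liver form of the family by level. At day 25 it measured 542, 451 and 453 FPKM in Con mice and 358, 326 and 465 FPKM in CR mice. At day 30 the values were 535, 414 and 497 FPKM in Con mice and 376, 442 and 378 FPKM in CR mice. At each day 2 of the CR mice were below all Con mice and 1 was among them, so that the groups overlapped. The log2 difference was -0.34 at day 25 (SE 0.151, 95% interval -0.67 to -0.01, limma with Benjamini-Hochberg adjusted p = 0.181) and -0.27 at day 30 (SE 0.151, 95% interval -0.60 to 0.06, adjusted p = 0.24). Over both days it was -0.31 (SE 0.103, 95% interval -0.53 to -0.08, limma with Benjamini-Hochberg adjusted p = 0.0375). This adjusted p was 0.105 after median-ratio scaling, with a difference of -0.23.

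Cyp3a59 is the near copy of Cyp3a25 in the cluster, with transcripts 97% identical. In Con mice it was at 42.6, 46.7 and 33.1 FPKM at day 25 and at 46.9, 35.9 and 58.6 FPKM at day 30. In CR mice it was at 28.2, 35.6 and 67 FPKM at day 25 and at 52, 45.5 and 51.4 FPKM at day 30. The CR mice of day 25 spanned the whole range of the gene, from its lowest to its highest value, and at day 30 the groups overlapped. The log2 difference was 0.01 at day 25 (95% interval -0.56 to 0.58, limma with Benjamini-Hochberg adjusted p = 0.987) and 0.10 at day 30 (95% interval -0.47 to 0.67, adjusted p = 0.831). The day 25 value changed sign with the scaling of libraries and with the mouse left out, reaching -0.34 without the third CR mouse. The ratio of Cyp3a25 to Cyp3a59 was 8.49 to 11.5 in Con mice of day 30 and 7.22 to 9.72 in CR mice of day 30, and these ranges overlap.

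Cyp3a13 lies outside the cluster and is also expressed in the intestine. It stood at 60.5, 71.7 and 84.1 FPKM in Con and 76.6, 69 and 90.5 FPKM in CR mice of day 25. At day 30 it was at 64, 57 and 81.1 FPKM in Con and 74.1, 76.6 and 77.8 FPKM in CR mice. The groups overlapped at both days. The log2 difference was 0.13 at day 25 (95% interval -0.20 to 0.46, limma with Benjamini-Hochberg adjusted p = 0.647) and 0.19 at day 30 (95% interval -0.14 to 0.52, adjusted p = 0.414), and 0.16 over both days (95% interval -0.06 to 0.38, adjusted p = 0.256). The intervals at each day exclude a fall of the size seen for Cyp3a11 at day 30, though not a small change in either direction.

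The ratio of Cyp3a11 to Cyp3a13 did not overlap between the groups at day 30, where Cyp3a11 itself did not overlap, so the ratio is no separate support. Within each library the ratio of Cyp3a11 to Cyp3a13 was 53.9 to 71.6 in Con mice of day 30 and 31.7 to 35.2 in CR mice of day 30, with no overlap. At day 25 it was 34.7 to 60.1 in Con and 26.2 to 35.6 in CR mice, and the ranges overlapped. The ratio of Cyp3a11 to Cyp3a25 overlapped at day 30, at 6.44 to 9.87 in Con and 6.10 to 6.52 in CR mice, and so did that of Cyp3a11 to Cyp3a16. These ratios were not tested, and how often other pairs of genes separate the groups is not given. The summed FPKM of all 8 genes followed Cyp3a11, with 4608 ± 525 in Con and 3042 ± 196 in CR at day 30 and 3936 ± 406 in Con and 2988 ± 747 in CR at day 25 (SD, n = 3).

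**Figure D3:**
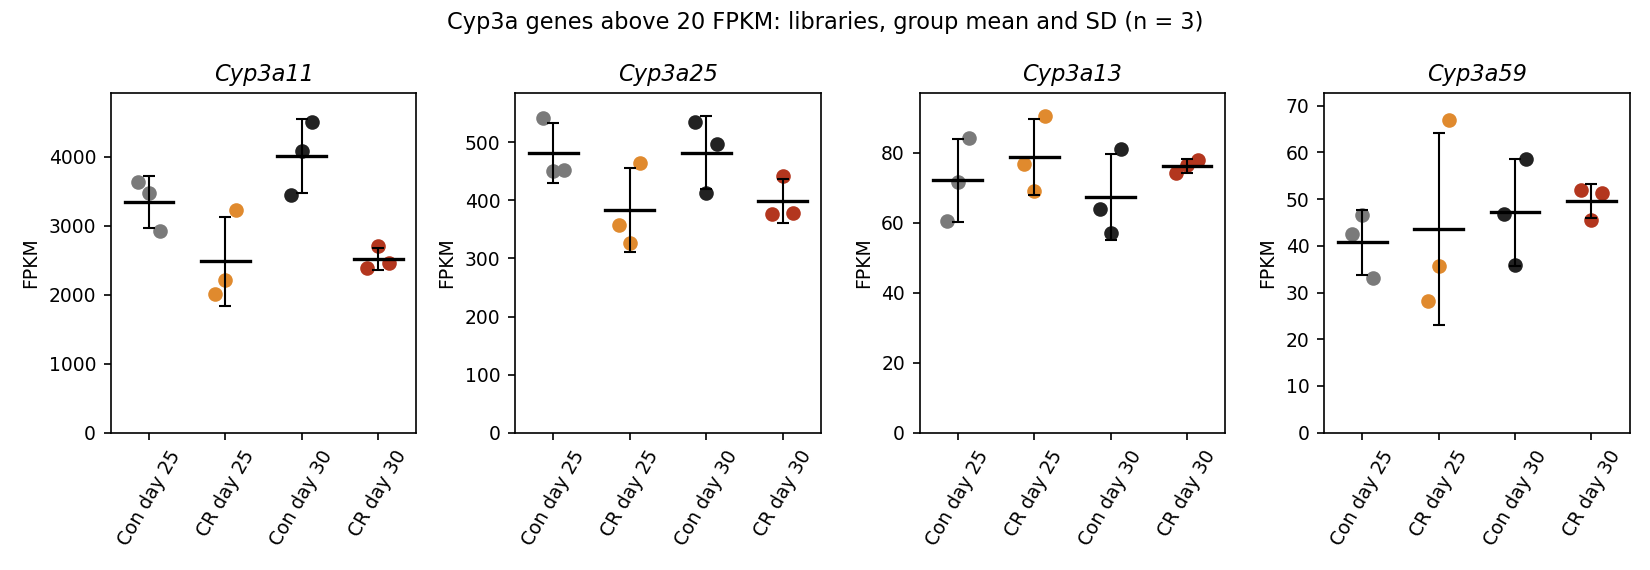
FPKM of Cyp3a11, Cyp3a25, Cyp3a13 and Cyp3a59 on linear axes from 0, with 1 point per library, a bar for the group mean and error bars for the SD (n = 3). The CR mice of day 30 lie below all Con mice for Cyp3a11, at 2388 to 2698 against 3446 to 4505 FPKM, and the groups overlap for the other 3 genes.

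Cyp3a16 was present at a low level, with every library above the floor of 3 reads. It was at 0.665, 1.396 and 0.519 FPKM in Con and 0.523, 0.74 and 0.696 FPKM in CR mice of day 25. At day 30 it was at 1.11, 0.82 and 1.19 FPKM in Con and 0.875, 0.66 and 0.5 FPKM in CR mice. One CR mouse of day 30 was above the lowest Con mouse, and the log2 difference was -0.14 at day 25 (limma with Benjamini-Hochberg adjusted p = 0.63) and -0.28 at day 30 (adjusted p = 0.252), a scale that understates changes of so low a gene. Cyp3a11 was 2487 to 5619 times as high as Cyp3a16 in the Con mice of day 25 and 2729 to 4927 times as high in the CR mice of day 30. The share of Cyp3a16 reads that came from Cyp3a11 was not tested.

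Cyp3a44 was at 0.112, 0.252 and 0.061 FPKM in Con and 0.145, 0.196 and 0.179 FPKM in CR mice of day 25. At day 30 it was at 0.15, 0.096 and 0.114 FPKM in Con and 0.352, 0.158 and 0.044 FPKM in CR mice. The CR mice of day 30 held both the highest and the lowest value of the gene, which rest on 16 and 2 reads. The sum of Cyp3a41a and Cyp3a41b was 0.054, 0.053 and 0.116 FPKM in Con mice of day 25 and 0 in all 3 CR mice of that day. At day 30 it was 0.048, 0 and 0.086 FPKM in Con and 0, 0.05 and 0.042 FPKM in CR mice. Each row was under the floor of 3 reads in all 12 libraries, so no fold is given, and an absence in CR mice is not shown.

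Cyp3a16 set aside because of its filter, 2 of the other 4 tested genes had differences below 0 and 2 above 0 at each day, while 57.1% of all tested genes were below 0 at day 25 and 60.8% at day 30. Without the minimum fold, the adjusted p threshold was passed by 0 of the 5 tested genes at day 25, by 1 of 5 at day 30 and by 2 of 5 over both days, against 14.9%, 24.7% and 40.6% of all tested genes. These shares are near the background. For the change of the CR difference between the days, 0 of 5 were called, beside 0.00944% of all tested genes, and between CR mice of the 2 days 0 of 5, beside 0.142%.

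**Figure D4:**
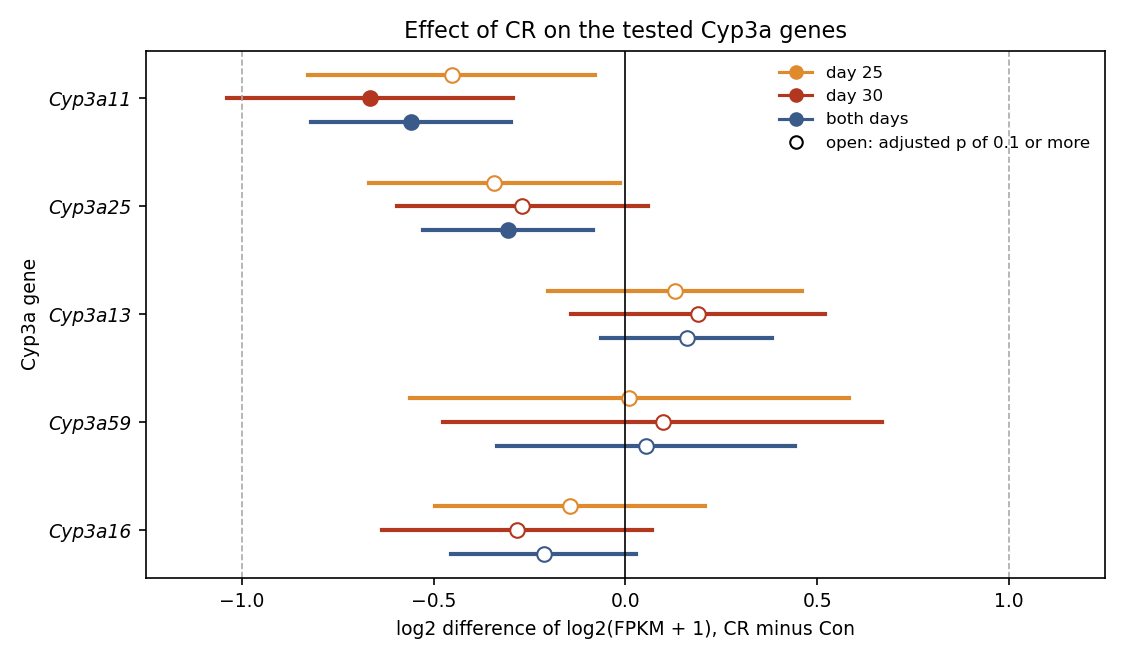
Difference of log2(FPKM + 1), CR minus Con, for the 5 tested Cyp3a genes at day 25, at day 30 and over both days, with 95% intervals from limma; filled points have an adjusted p under 0.1 and dashed lines mark a difference of 1 in size. Only Cyp3a11 at day 30 and over both days and Cyp3a25 over both days are filled, and no point reaches a dashed line.

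The regulators of Cyp3a transcription differed in both directions, with 6 of 13 tested below 0 at day 25 and 7 of 13 at day 30. Nr1i2, which encodes PXR, was at 25.4, 34.3 and 35.5 FPKM in Con and 55.1, 58 and 47.8 FPKM in CR mice of day 25. At day 30 it was at 29.3, 29.3 and 24.4 FPKM in Con and 54.5, 50.5 and 45.8 FPKM in CR mice. All CR mice were above all Con mice at both days, with log2 differences of 0.75 (limma with Benjamini-Hochberg adjusted p = 0.00684) and 0.84 (adjusted p = 0.00206), short of the minimum fold. Such a separation upward was seen for 10.2% of all tested genes at day 25 and for 12.1% at day 30. As groups, CR mice thus had more Nr1i2 at both days and less Cyp3a11 at day 30. The third CR mouse of day 25 had Nr1i2 at 47.8 FPKM, above all Con mice, but Cyp3a11 at 3221 FPKM, within the Con range. A link between the 2 genes was not tested. For Nr1i3, which encodes CAR, the difference was 0.18 at day 25 and 0.37 at day 30 (limma with Benjamini-Hochberg adjusted p = 0.645 and 0.24). For Rxra it was -0.17 and -0.22 (adjusted p = 0.471 and 0.269), and for Hnf4a 0.24 and 0.08 (adjusted p = 0.256 and 0.704). The intervals of these 3 included 0 at both days, so a change was neither shown nor excluded. Cebpa, which encodes the liver-enriched factor C/EBP alpha, was at 189, 139 and 141 FPKM in Con and 80.9, 106 and 90.2 FPKM in CR mice of day 30, with no overlap and a log2 difference of -0.75 (limma with Benjamini-Hochberg adjusted p = 0.00559), also short of the minimum fold. At day 25 the difference was -0.19 (adjusted p = 0.464) and the groups overlapped. Cebpb, of the same list, went the other way, with no overlap at either day. It was at 31.3 to 52.4 FPKM in Con and 67.5 to 80.7 FPKM in CR mice of day 25. Its day 30 values were 30.3 to 33.6 FPKM in Con and 52.6 to 54.7 FPKM in CR mice. Cebpa and Cebpb are outside the rule for named genes and were chosen after their values were seen.

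Of 13 tested regulators, 1 was called at each day, both higher in CR. Nr0b2, which encodes the repressor SHP, rose at day 25, from 9.98 to 15.6 FPKM in Con to 22.8 to 31.1 FPKM in CR mice (log2 difference 1.02, limma with Benjamini-Hochberg adjusted p = 0.0148). It was not called at day 30, when the groups overlapped, at 10.4 to 20.7 FPKM in Con and 18.8 to 24.2 FPKM in CR mice. Ppargc1a, a coactivator that is known to be raised by fasting, rose at day 30, from 1.79 to 3.03 FPKM in Con to 3.90 to 8.22 FPKM in CR mice (1.10, adjusted p = 0.00998). It was not called at day 25, though all CR mice were above all Con mice, at 2.635 to 3.576 FPKM in Con and 3.845 to 7.338 FPKM in CR mice. Such a separation upward was seen for 10.2% of all tested genes at day 25. At day 25, 0.84% of all tested genes were called higher and 0.642% lower, and at day 30 0.925% and 1.28%.

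Por, the reductase that supplies electrons to all microsomal P450 enzymes, rose at both days. It stood at 179, 326 and 345 FPKM in Con and 565, 585 and 658 FPKM in CR mice of day 25. At day 30 it was at 163, 191 and 148 FPKM in Con and 559, 513 and 504 FPKM in CR mice. All CR mice exceeded all Con mice, with log2 differences of 1.14 (limma with Benjamini-Hochberg adjusted p = 0.00608) and 1.65 (adjusted p = 0.000412). Such a separation upward was seen for 10.2% of all tested genes at day 25 and for 12.1% at day 30. Por was the only 1 of 4 tested electron donor genes to be called at either day.

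Other genes known to be induced through PXR or CAR were mixed. Of 14 tested, 0 were called at day 25 and 2 at day 30, both higher, beside 0.84% and 0.925% of all tested genes called higher. The 2 were the transporters Abcb1a, at 0.572 to 1.66 FPKM in Con and 3.70 to 5.62 FPKM in CR mice of day 30 (log2 difference 1.57, limma with Benjamini-Hochberg adjusted p = 0.000272), and Slco1a4, at 19.1 to 33.4 FPKM in Con and 65.1 to 89.3 FPKM in CR mice (1.38, adjusted p = 0.00336). The median difference of the 14 was 0.12 at day 25 and 0.06 at day 30, and 6 of 14 were below 0 at day 25 and 7 of 14 at day 30.

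Sex-biased genes of adult liver were measured in the same mice. Like the other gene lists, these were chosen with earlier results of these data known. Counts of calls in the lists are thus descriptions and not a test. Of 13 tested female-biased genes, 8 were called higher at day 25 and 12 at day 30, beside 0.84% and 0.925% of all tested genes. Cyp2b9, Cyp2b13, Cyp2a4 and A1bg passed the filter only through CR libraries. The filter itself thus favours a higher CR value for them, and their calls are not support. Of the other 9 genes, 6 were called higher at day 25 and 8 at day 30. Cyp2b9, a female-predominant P450 gene, was at 0.025 to 0.214 FPKM in Con and at 121 to 196 FPKM in CR mice of day 30. Cyp2a4 rose from 0.156 to 0.275 FPKM in Con to 2.92 to 8.33 FPKM in CR mice of day 30, and Cyp2b13 from 0 to 0.026 FPKM to 1.49 to 41 FPKM. On the log2 scale the day 30 differences were 2.78 for the thioesterase gene Acot3 and 2.34 for the flavin monooxygenase gene Fmo2, with an adjusted p under 0.1 in each (limma, Benjamini-Hochberg). For Cyp2b9, Cyp2b13 and Cyp2a4 they were 7.01, 2.88 and 2.51, without a p because of the filter. Of 13 tested male-biased genes, 7 were called lower at day 25 and 12 at day 30, beside 0.642% and 1.28% of all tested genes, with median differences of -1.42 and -3.45. Serpina1e, a protease inhibitor gene, was at 2627 to 3986 FPKM in Con and 6.81 to 121 FPKM in CR mice of day 30, and Elovl3, a fatty acid elongase gene, at 45.1 to 60.9 FPKM and 1.42 to 4.56 FPKM. The falls on the log2 scale at day 30 were -6.51 for Serpina1e, -6.13 for Selenbp2, -4.40 for the urinary protein gene Mup20, -3.94 for Elovl3, -3.62 for the steroid dehydrogenase gene Hsd3b5 and -3.48 for Cyp4a12b, a fatty acid hydroxylase. In the same CR mice of day 30, Cyp3a41a, Cyp3a41b and Cyp3a44, also female-predominant in adult liver, stayed at or below 0.352 FPKM. This was not particular to them. The untested Sult2a1, Prom1 and Ntrk2 of the female-biased list reached at most 0.212, 0.232 and 0.177 FPKM in these mice. The untested Sult3a1 was at 0.899 to 3.51 FPKM. The third CR mouse of day 25, in which Cyp3a11 was as high as in Con mice, had the highest Cyp2b9 of its group, at 60.6 FPKM, and the lowest Serpina1e, at 111 FPKM. The female-biased Cyp2a4, Abcd2 and Atp6v0d2 went the other way. In that mouse they were the lowest of its group, at 1.488, 4.579 and 1.815 FPKM. These genes were picked after their values were seen, and a link with Cyp3a11 was not tested. Of 9 genes of growth hormone signalling, known to set the sex bias of the liver, 0 were called at either day, where 1.48% and 2.21% of all tested genes were. Without the minimum fold, 2 of the 9 were lower at day 30, beside 16.4% of all tested genes. An unchanged pathway is thus not shown.

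**Figure D5:**
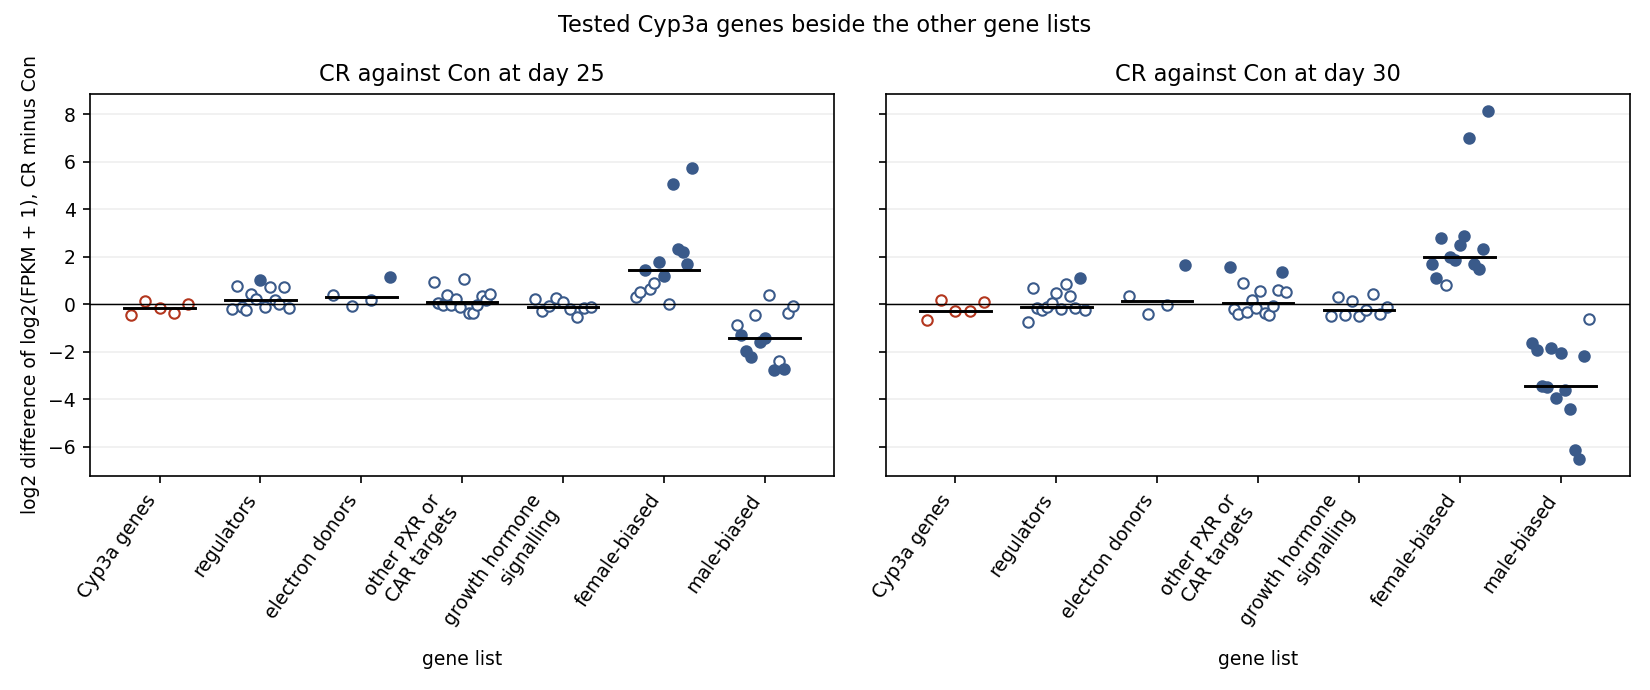
Difference of log2(FPKM + 1), CR minus Con, at day 25 (left) and day 30 (right) for the 5 tested Cyp3a genes and the tested genes of 6 other lists; filled points passed both thresholds and bars are medians. The Cyp3a genes lie between -0.67 and 0.19, while the male-biased genes have a median of -3.45 at day 30 and 4 of the 13 female-biased genes passed the filter only through CR libraries.

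Markers of cell types were measured beside the Cyp3a11 difference. At day 30 the summed FPKM of the 5 hepatocyte markers was 35670 to 44550 in Con and 52520 to 63670 in CR mice, with 1 of 5, Tat, called higher. Without the minimum fold, 3 of 5 were higher, beside 8.33% of all tested genes. These were Tat, Alb and Cps1 (limma with Benjamini-Hochberg adjusted p = 0.00287, 0.00791 and 0.0705). Most of this sum was Alb, at 25401 to 33010 FPKM in Con and 41047 to 51723 FPKM in CR mice, while Apoa1 was lower in every CR mouse, at 5860 to 6596 FPKM in Con and 4807 to 5524 FPKM in CR (adjusted p = 0.261, limma with Benjamini-Hochberg). The 5 stellate cell markers summed to 57.5 to 73.5 FPKM in Con and 84.3 to 96.6 FPKM in CR, and the 5 sinusoidal endothelial markers to 29 to 31.9 FPKM and 38 to 43.1 FPKM, with 0 of 5 called in each list. By the adjusted p alone, 2 of 5 in each of these lists were higher at day 30, beside 8.33% of all tested genes. These were Dcn and Reln (limma with Benjamini-Hochberg adjusted p = 0.0155 and 0.0366), and Stab2 and Clec4g (adjusted p = 0.0552 and 0.0875). The 5 Kupffer cell markers overlapped, at 29.3 to 43.7 FPKM in Con and 28.3 to 38.2 FPKM in CR mice of day 30. At day 25 they did not overlap, at 32.6 to 54.9 FPKM in Con and 21 to 28 FPKM in CR mice. By the adjusted p alone, 3 of 5 were lower at day 25, beside 9.34% of all tested genes. These were Csf1r, Cd5l and Clec4f, all short of the minimum fold (limma with Benjamini-Hochberg adjusted p = 0.0287, 0.0461 and 0.0539). Marco, of the same list, went the other way, with log2 differences of 0.37 at day 25 and 0.79 at day 30 (limma with Benjamini-Hochberg adjusted p = 0.338 and 0.0349). Its groups did not overlap at day 30, at 1.602 to 2.359 FPKM in Con and 3.29 to 6.345 FPKM in CR mice. Such a separation upward was seen for 12.1% of all tested genes at day 30. Lymphocyte markers, with 4 in the table and 0 tested, summed to 1.35 to 1.69 FPKM in Con and 0.803 to 1.12 FPKM in CR mice. Cholangiocyte markers, with 2 of 5 tested and 0 called, summed to 10.2 to 14.1 FPKM in Con and 12 to 14.8 FPKM in CR mice. The part of cell makeup in the Cyp3a11 differences was not tested.

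Neighbouring genes give the setting of the cluster. Within 500 kb of the cluster lay 28 other genes, of which 14 were tested and 0 were called at either day, with median differences of -0.0064 at day 25 and -0.027 at day 30. By the adjusted p alone, 2 of the 14 passed at day 30, beside 24.7% of all tested genes, and 5 of 14 over both days, beside 40.6%. The 2 at day 30 were Zfp655, a zinc finger gene (-0.53, limma with Benjamini-Hochberg adjusted p = 0.0103), and the ubiquitin ligase gene Rnf6 (-0.29, adjusted p = 0.0462). Around Cyp3a13, 48 other genes held 26 tested and 0 called, and 1 of 26 passed the adjusted p alone at each day.

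The genes most like each Cyp3a gene over the 12 libraries were taken by Pearson's r of log2(FPKM + 1). For Cyp3a11 they were Nipal3 (r = 0.964), Plpp6, a phospholipid phosphatase gene (r = 0.96), and Mcu, the pore of the mitochondrial calcium uniporter (r = 0.925). Around the group means these correlations were 0.895, 0.871 and 0.735. Mcu differed by -0.67 at day 30 (limma with Benjamini-Hochberg adjusted p = 0.00122), below the minimum fold like Cyp3a11. For Cyp3a13 they were Cps1, the first enzyme of the urea cycle (r = 0.856), the clock gene Per1 (r = 0.853) and Rab35 (r = 0.831). Cyp3a25 went with Cstf2t, Cxxc5 and Hus1 (r = 0.894, 0.89 and 0.888), Cyp3a59 with Slc6a13, Dnajc9 and Etnppl (r = 0.836, 0.803 and 0.791), and Cyp3a16 with Mettl2, Ces2a and Tbc1d10a (r = 0.926, 0.893 and 0.884). These values describe 12 libraries that share diets, days and a sequencing lane, and they are the highest of 10593 genes.

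Among the Cyp3a genes themselves, r over the 12 libraries was 0.777 between Cyp3a11 and Cyp3a25 and -0.271 between Cyp3a11 and Cyp3a13. Around the group means the highest were 0.794 between Cyp3a11 and Cyp3a59 and 0.641 between Cyp3a25 and Cyp3a59, and that between Cyp3a11 and Cyp3a13 was 0.276. Mice with more Cyp3a11 than their group mean thus tended to have more Cyp3a59, which is a description of 12 libraries without a test.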

How the data were processed

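Liver RNA of 12 male mice was sequenced as 100-base pairs on a single lane. The authors mapped reads to mm10 with BWA and deposited 1 table of FPKM. Its header names HOMER, exons as the counted regions, 1 transcript for each gene and no normalisation between libraries. The versions of BWA and HOMER and the annotation release are not given in the sources used here. The depth was recovered from low FPKM, which were whole reads to within 0.1 in 100% of cases, and it limits the precision of genes with few reads. The count of 3 reads as a floor covers counting error only.

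Values were analysed as log2(FPKM + 1) in limma 3.58.1 (R 4.3.3) after removing genes that did not reach 1 FPKM in 3 libraries. One linear model held a mean for each of the 4 groups, with trended empirical Bayes moderation, and day entered as a covariate for the comparison over both days. Calls required an adjusted p (Benjamini-Hochberg) below 0.1 and a log2 difference of 1 or more in size, and tests were 2-sided. The model was tested on simulated data. Sequences were handled with Biopython 1.88 in Python 3.11.15, tables with pandas 2.3.3 and numpy 2.4.6, and plots with matplotlib 3.10.9.

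The members and the gene lists, which were written by symbol from general knowledge, were chosen with earlier results of these data known. Named genes are the 8 members, Nr1i2, Nr1i3, Rxra, Hnf4a and Por, up to 6 called genes of each list, and the 3 protein-coding genes with the highest r for each tested member. An item that this rule would name is not reported here. Cebpa, Cebpb, single neighbours and cell type markers, and the values of single mice, were added after they were seen. Mice share replicate numbers in the labels but are different animals. At day 25 the deviations of same-numbered Con and CR mice correlated at 0.106 to 0.368, and these numbers formed a block in an alternative. The labels do not tell the Con mice of day 30 apart, so these carry the numbers of their columns. Other alternatives changed the pseudocount, filter, scaling, moderation, samples fitted or thresholds, left out each mouse, or used voom on the recovered reads. Proteins and metabolites are not analysed here.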

Additional observations from a re-analysis of the deposited data

How the results depend on the processing

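No Cyp3a gene was called at day 25, for the difference between days or between CR mice of the 2 days under any alternative run. Without a minimum fold, 1 Cyp3a gene (Cyp3a11) passed at day 30 and 2 (Cyp3a11 and Cyp3a25) over both days. Alternatives that changed only a threshold keep the main adjusted p, and leaving out a mouse of 1 day keeps all mice of the other day. The counts of alternatives thus include some that could move a result little or not at all. For Cyp3a11 at day 30 the difference ranged from -0.77 to -0.45, and 21 of 23 alternatives kept the adjusted p under 0.1. At day 25 it ranged from -0.66 to -0.22, and 2 of 23 alternatives brought the adjusted p under 0.1, namely voom (0.0932) and leaving out the third CR mouse. Cyp3a25 at day 25 reached an adjusted p of 0.0834 (-0.49) without that mouse. Cyp3a16 at day 30 was -0.67 with voom and -0.56 with a pseudocount of 0.1. Over both days its adjusted p was 0.0964 with voom and 0.0671 without the third Con mouse of day 25, which held its lowest Con value, 0.519 FPKM. Since Cyp3a16 passed the filter only through Con libraries, these values are not support for a lower level in CR mice. Signs turned only for small differences. Cyp3a59 at day 25 was -0.0082 as TPM, -0.034 with quantile normalisation and -0.012 with voom. Leaving out 1 mouse moved Cyp3a59 from -0.34 to 0.27 at day 25, from -0.081 to 0.27 at day 30, from -0.10 to 0.17 over both days and from -0.17 to 0.44 between days. It moved Cyp3a16 from -0.28 to 0.053 at day 25. The change between days ran from -0.056 to 0.20 for Cyp3a13 and from -0.034 to 0.22 for Cyp3a25. Between CR mice of the 2 days the ranges were -0.087 to 0.25 for Cyp3a11, -0.13 to 0.065 for Cyp3a13, -0.065 to 0.096 for Cyp3a16 and -0.037 to 0.22 for Cyp3a25. The cause of these turns was not tested. Over all tested genes, 157 were called at day 25 and 234 at day 30, against 309 and 452 with voom and 276 and 385 with a pseudocount of 0.1, and 1582 and 2619 without a minimum fold.

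Adding the replicate block (the replicate number as a term), the adjusted p of Cyp3a11 was 0.166 at day 25 (-0.45) and, by column number, 0.0187 at day 30 (-0.67), and the block changed no call of a Cyp3a gene. At day 30 same-numbered mice correlated at 0.0456 to 0.181, so the column numbers were not taken as a pairing, and CR mice of the 2 days averaged -0.0017. The depth limits Cyp3a16, Cyp3a44, Cyp3a41a and Cyp3a41b, and 3 mice per group limit the others.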
